A study of Mus musculus with 4 samples.

Results

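The genes of the elastic fibre, the stretchable matrix of the lung, were followed in whole-lung RNA of male C57BL mice that had breathed mainstream cigarette smoke or clean air. The set named 10 genes: Eln, Fbn1, Fbln1, Fbln5, Lox, Loxl1, Loxl2, Mfap4, Emilin1 and Efemp2. A gene was measured here when the array annotation gave a feature its symbol and no other, and 7 of the 10 had such a feature, 1 each, among 30142 genes named in that way. Fbn1, Loxl2 and Efemp2 had none and are not described further. The 4 groups were smoke for 2 weeks, clean air for 2 weeks, smoke for 4 weeks and clean air for 4 weeks. Mice entered at 10 weeks of age, were exposed for 1 h per day on 5 days per week, and were killed at 12 or 14 weeks of age. Lungs of 5 mice were mixed for each group, or of 4 for the 4-week smoke group, and each mixture was hybridised to 1 array. The pool therefore hides the spread between animals, and no group had a replicate.

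Elastic fibres have a core of cross-linked elastin laid on a scaffold of fibrillin microfibrils. Cells secrete soluble tropoelastin, fibulins help to place it on the microfibrils, and lysyl oxidases oxidise its lysines so that the chains become linked. In the lung the fibres run through alveolar walls, airways and vessels and give elastic recoil, and their breakdown is a known feature of smoke-related emphysema. Most elastin is made during development, and the protein turns over slowly in adults.

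All values are log2 of the deposited signal, and a difference of 2 pools is given on that log2 scale. A difference between 2 single arrays has no replicate check and no p-value. The smoke effect over both durations was the mean of the 2-week and the 4-week difference, smoke minus control, tested with limma with duration in the model and p-values adjusted by the Benjamini-Hochberg method over 18084 genes above a floor on low signal. It is given as the effect ± its standard error, with 2 smoke and 2 control pools. All 7 measured elastic fibre genes lay above the floor. The spread behind this test is how much the smoke difference varied between the durations, moderated across genes, and it may be partly technical. The pools' median signals were close, between 58.8 and 61.7 on the linear scale. Folds and counts at 1.5-fold assume that the linear values were made from logarithms of base 2, which was not tested. Signals above the largest value that an array scan was taken to hold were present in every pool. They numbered from 541 features in the 4-week control pool to 581 in the 4-week smoke pool, and the highest signal was 845602. The base 2 scale is therefore not established by these values. For logarithms of base e, the differences shrink by a factor of 0.69, and another undescribed transformation could alter them further. In whole lung, a different share of the cells that make a transcript and a different amount of RNA per cell cannot be told apart.

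Of the 7 genes, 0 passed the test at an adjusted p of 0.05, where 1.47% of all genes did (1.15% higher and 0.315% lower). At an unadjusted p under 0.05 there were 3, Eln, Mfap4 and Loxl1, all higher in smoke, against 11.6% of all genes in either direction. The median effect of the 7 was 0.21, against 0.00 for all genes, and 6 of them lay above 0, as did 48.6% of all genes. The outcome for these 3 genes depended on which genes were fitted together. When protein-coding genes alone were fitted, all 3 passed and rose, with 7.03% of the genes passing in that fit. With a higher floor, at the 60th percentile of mean signal, Eln passed, with 3.14% of the genes passing.

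Eln encodes tropoelastin, the soluble monomer of the fibre's core. Its log2 signal was 12.26 and 12.43 in the 2-week and 4-week smoke pools, against 11.82 and 11.78 in the 2-week and 4-week control pools. Both smoke pools lay above both control pools, and the control pools lay close together. The difference was 0.44 at 2 weeks, or 1.35-fold, and 0.65 at 4 weeks, or 1.57-fold. At 4 weeks Eln was the gene of the 7 that was at least 1.5-fold higher in smoke, as were 2.53% of all genes. The effect over both durations was 0.54 ± 0.109 (limma, adjusted p = 0.0918), with a 95% interval of 0.28 to 0.81. A larger positive effect was seen in 1.75% of all genes. Each pool was also left out in turn, in fits of smoke alone that have no duration term and so mix the left-out pool with the difference between durations. In these fits the Eln effect lay between 0.46 and 0.63.

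**Figure D1:**
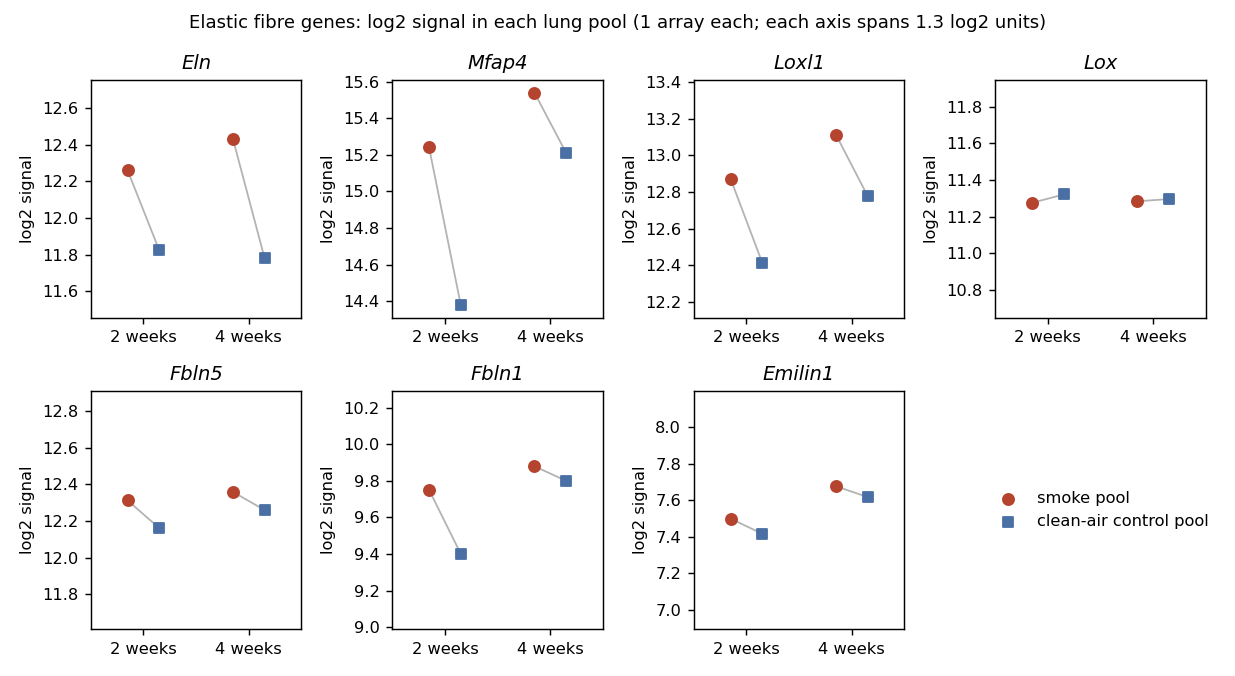
Log2 signal (vertical axis) of the 7 measured elastic fibre genes in the smoke pool (circles) and the clean-air control pool (squares) at 2 and 4 weeks, 1 array per point and no error bars because no pool had a replicate. Eln is high in both smoke pools and alike in both control pools, Mfap4 is low in the 2-week control pool, and Lox is nearly level.

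Of the cross-linking enzymes, Loxl1 was higher in both smoke pools, while Lox was nearly level across the pools. Loxl1, the lysyl oxidase that binds fibulin-5 and is needed to maintain elastic fibres in adult mice, had a log2 signal of 12.87 and 13.11 in the 2-week and 4-week smoke pools, against 12.41 and 12.78 in the control pools. The smoke pools were higher than the control pools without overlap, but the 2-week smoke pool was only 0.09 above the 4-week control. The differences were 0.46 (1.37-fold) at 2 weeks and 0.33 (1.26-fold) at 4 weeks, and the effect was 0.40 ± 0.103 (limma, adjusted p = 0.185; 95% interval 0.15 to 0.65). The control pools differed by 0.36, with Loxl1 higher at 4 than at 2 weeks, which is above the 4-week and below the 2-week smoke difference. In fits of smoke alone the Loxl1 effect was 0.21 without the 2-week control pool and 0.58 without the 4-week control pool.

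Lox, the founding lysyl oxidase, which cross-links both elastin and collagen, had a log2 signal of 11.28 and 11.28 in the 2-week and 4-week smoke pools, against 11.32 and 11.30 in the control pools. All 4 pools lay within 0.05 of each other, the narrowest range of the 7 genes. The effect was -0.03 ± 0.101 (limma, adjusted p = 0.967), and its 95% interval of -0.27 to 0.21 bounds the change at less than 1.5-fold in either direction under this model. After cyclic loess the sign of the Lox effect turned (0.01).

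Mfap4, a microfibril-associated glycoprotein that binds tropoelastin and fibrillin-1, had the widest range of the 7 genes. Its log2 signal was 15.24 and 15.54 in the 2-week and 4-week smoke pools, against 14.38 and 15.21 in the control pools. The 2-week control pool stood apart at the low end, and the other 3 pools lay within 0.33 of each other. At 2 weeks Mfap4 was 0.86 higher in smoke, or 1.81-fold, the only one of the 7 genes at least 1.5-fold higher there, as were 1.82% of all genes. At 4 weeks it was 0.33 higher, or 1.26-fold. Between the control pools it was 0.83 higher at 4 than at 2 weeks, or 1.78-fold. It was again the one gene of 7 past 1.5-fold, as were 1.85% of all genes higher. Set against the 4-week control pool, whose mice were older, the 2-week smoke pool was 0.03 higher. The effect over both durations was 0.59 ± 0.145 (limma, adjusted p = 0.16; 95% interval 0.24 to 0.94). In fits of smoke alone it was 0.18 without the 2-week control pool and 1.01 without the 4-week control pool.

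Emilin1, an elastin microfibril interface protein, had a log2 signal of 7.50 and 7.68 in the 2-week and 4-week smoke pools, against 7.42 and 7.62 in the control pools. The groups overlapped, and the 4-week pools were both above the 2-week pools. The effect was 0.07 ± 0.101 (limma, adjusted p = 0.892; 95% interval -0.17 to 0.31). Both within-duration differences lay above 0, at 0.08 at 2 weeks and 0.06 at 4 weeks. In fits of smoke alone, without the duration term, the sign turned without the 2-week control pool (-0.03) and without the 4-week smoke pool (-0.02).

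The fibulins bridge elastin and the microfibrils. Fbln5, which binds tropoelastin and integrins and is required for fibre assembly in mice, had a log2 signal of 12.31 and 12.36 in the 2-week and 4-week smoke pools, against 12.16 and 12.26 in the control pools. The smoke pools were higher without overlap, by 0.15 at 2 weeks and 0.10 at 4 weeks. The effect was 0.13 ± 0.101 (limma, adjusted p = 0.757; 95% interval -0.12 to 0.37). Fbln1, a fibulin of elastic fibres and basement membranes, had a log2 signal of 9.75 and 9.88 in the 2-week and 4-week smoke pools, against 9.40 and 9.80 in the control pools. The 2-week control pool was again the low one, and the 2-week smoke pool lay below the 4-week control pool. The effect was 0.21 ± 0.114 (limma, adjusted p = 0.572; 95% interval -0.06 to 0.49), and in fits of smoke alone it was 0.01 without the 2-week control pool and 0.41 without the 4-week control pool.

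Start-site sequences were at hand in the RefSeq promoter table (build GRCm38.p6) for 3 of the 7 measured genes, Fbln5, Fbln1 and Emilin1, and are shown as the windows at hand for these genes. Each runs 5′ to 3′ on the gene's strand from 250 bases before the first start listed for the gene to 50 bases after it. The motifs searched on both strands were TATAAA (the TATA box), GGGCGG (the GC box), CCAAT and TGANTCA (the AP-1 element), and capitals mark matches. Fbln5 is at chr12:101819070-101819369 on the minus strand, Fbln1 at chr15:85205699-85205998 on the plus strand and Emilin1 at chr5:30913536-30913835 on the plus strand.
Fbln5: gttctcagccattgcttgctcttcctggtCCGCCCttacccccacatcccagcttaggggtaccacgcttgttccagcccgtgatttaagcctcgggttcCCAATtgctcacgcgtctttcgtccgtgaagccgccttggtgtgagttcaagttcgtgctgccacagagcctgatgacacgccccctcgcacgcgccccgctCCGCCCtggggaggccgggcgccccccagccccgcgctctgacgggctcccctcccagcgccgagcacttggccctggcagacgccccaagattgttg
Fbln1: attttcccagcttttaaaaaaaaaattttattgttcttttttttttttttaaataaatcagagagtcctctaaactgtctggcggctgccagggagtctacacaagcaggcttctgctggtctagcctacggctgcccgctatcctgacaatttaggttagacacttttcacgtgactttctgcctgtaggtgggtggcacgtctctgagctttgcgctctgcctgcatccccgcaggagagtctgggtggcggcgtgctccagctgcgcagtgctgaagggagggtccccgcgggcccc
Emilin1: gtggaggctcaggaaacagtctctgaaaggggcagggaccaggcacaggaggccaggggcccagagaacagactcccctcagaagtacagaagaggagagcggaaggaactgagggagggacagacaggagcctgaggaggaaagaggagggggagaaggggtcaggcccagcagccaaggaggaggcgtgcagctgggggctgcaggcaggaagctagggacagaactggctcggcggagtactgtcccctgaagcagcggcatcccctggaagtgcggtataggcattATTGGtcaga

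The Fbln5 window held 2 matches to the GC box, both read on the opposite strand, and 1 to CCAAT. The Emilin1 window held 1 match to CCAAT, on the opposite strand and after the start. The Fbln1 window held 0 matches to any of the 4 motifs. Of all 32851 windows in the table, 35.7% held GGGCGG, 37.4% CCAAT, 13.6% TATAAA and 7.81% TGANTCA. The G and C content was 65.7% for Fbln5, 51.7% for Fbln1 and 61.7% for Emilin1, and its median over all windows was 52.7%. Fbln1 and Fbln5 each had 2 starts in the table, and the windows at the second start differed. For Fbln5 that window held 0 matches and 48.7% G and C, and for Fbln1 it held 2 matches to the GC box and 64% G and C. The matches describe these letters and no binding was measured.

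The order of the pools was alike in most of the 7 genes. The 4-week smoke pool was the highest of the 4 in 6 genes, all but Lox, as it was in 29.5% of all genes. The 2-week control pool was the lowest in 5 genes, all but Eln and Lox, as it was in 30.4% of all genes. Both held in 5 genes, against 15.4% of all genes. The comparison of these extremes, which differ in age and duration as well as in smoke, gave 3 genes at least 1.5-fold higher, Eln, Loxl1 and Mfap4, as were 4.59% of all genes. Of the smoke pools, that of 4 weeks was the higher one in all 7 genes, by 0.01 (Lox) to 0.30 (Mfap4), as were 50.4% of all genes. Both smoke pools lay above both control pools in 4 genes, Eln, Loxl1, Mfap4 and Fbln5, against 15.7% of all genes, and below them in Lox, against 16.8%.

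**Figure D2:**
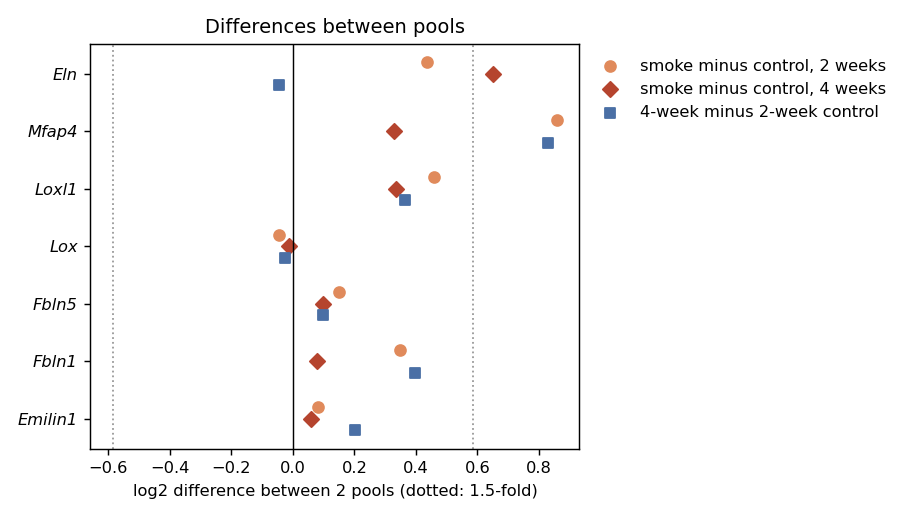
Log2 differences between single pools (horizontal axis) for the 7 genes, with smoke minus control at 2 weeks (circles), smoke minus control at 4 weeks (diamonds) and the 4-week minus the 2-week control pool (squares). Dotted lines mark 1.5-fold and no point has an error because no pool was replicated; the control pools lie 0.83 apart in Mfap4, 0.36 in Loxl1 and 0.40 in Fbln1, and close together in Eln.

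The smoke differences at the 2 durations share no array. They lay above 0 in 6 of the 7 genes at each duration, as in 51.3% of all genes at 2 weeks and 46.5% at 4 weeks. Lox lay slightly below 0 at both (-0.05 and -0.01). The median differences of the 7 genes were 0.10 at 4 weeks and 0.35 at 2 weeks, where all genes had -0.02 and 0.01. The 4-week difference was the larger one in Eln, by 0.21, and the smaller one in Mfap4, by 0.53 (-0.53 as 4 weeks minus 2 weeks). This change with duration could not be tested with 1 array per group. The 4-week minus the 2-week control pool had a median of 0.20 over the 7 genes, against 0.01 for all genes. It shares the control arrays with the smoke differences.

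**Figure D3:**
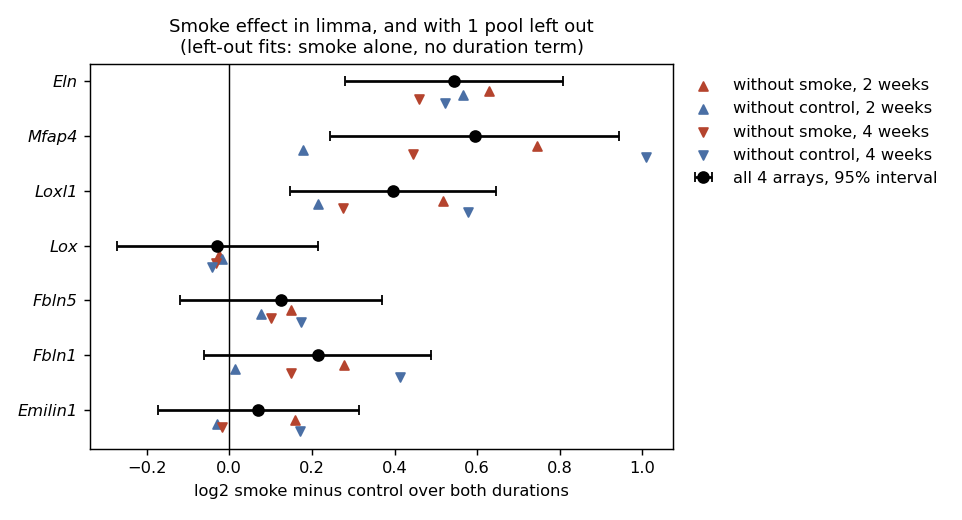
Smoke effect over both durations (horizontal axis, log2 smoke minus control) of each gene in the limma fit to all 4 arrays, with its 95% interval, and the effect with 1 pool left out in fits of smoke alone, without the duration term (triangles, colour for smoke or control). The points for Eln stay between 0.46 and 0.63, while those for Mfap4 run between 0.18 and 1.01.

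Other genes of the elastic fibre and its microfibrils lay on both sides of 0. Of 30 such genes, 29 had a feature and 26 lay above the floor, and 0 rose and 0 fell by limma. At an unadjusted p under 0.05 there were 3 of the 26, Ltbp2, Mfap5 and Efemp1, a share close to the 11.6% of all genes. The median effect of the 26 was -0.03, and 9 of them lay above 0, as did 48.6% of all genes. Ltbp2, a latent TGF-beta binding protein that associates with microfibrils, had a log2 signal of 9.49 and 9.87 in the smoke pools, against 9.23 and 9.11 in the control pools (effect 0.51 ± 0.141, limma adjusted p = 0.212). Mfap5, a microfibril glycoprotein, had 10.50 and 10.96 in the smoke pools, against 9.89 and 10.59 in the control pools (0.49 ± 0.111, adjusted p = 0.129). The 2-week control pool was the lowest of the 4, as for Mfap4. Efemp1, or fibulin-3, a relative of Efemp2, had 13.77 and 13.55 in the smoke pools, against 14.06 and 14.02 in the control pools (-0.38 ± 0.107, adjusted p = 0.221), so both smoke pools were the lower ones. When protein-coding genes alone were fitted, Ltbp2 and Mfap5 rose and Efemp1 fell, with 7.03% of the genes passing in that fit.

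The remaining named genes of that list had smaller effects. Atp7a, the copper transporter that loads lysyl oxidases, was at -0.22 ± 0.102, Ltbp1 at -0.19 ± 0.102, the emilin-family multimerin Mmrn1 at -0.13 ± 0.102 and Fbln2 at -0.13 ± 0.104. The proteoglycan gene Bgn was at 0.14 ± 0.102 and Adamtsl2, which binds fibrillin microfibrils, at 0.17 ± 0.105. The limma adjusted p-values of these genes lay between 0.486 and 0.757. Mfap2, the partner of fibrillin in microfibrils, had 9.44 and 9.62 in the smoke pools, against 9.27 and 10.27 in the control pools, so that the 4-week control pool was the high one. The control pools differed by 1.00 log2 units in Mfap2. The same pool was the highest for Ltbp4, which directs elastin deposition and had 12.95 and 12.92 in the smoke pools, against 12.70 and 13.23 in the control pools. Adamtsl4 had 10.73 and 11.03 in the smoke pools, against 10.72 and 11.39 in the control pools. Fbn2, the fibrillin of developing tissue, was under the floor, at 5.13 and 5.22 in the smoke pools and 5.17 and 5.08 in the control pools.

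Among the enzymes that degrade elastin, several passed the test. Of 11 listed elastolytic proteases, 8 lay above the floor, with a median effect of 0.72. Of these, 4 rose, Mmp12, Ctsk, Ctss and Mmp2, and 0 fell, where 1.15% of all genes rose and 0.315% fell. After cyclic loess Mmp12 and Ctsk still passed and the other two did not, after median centring only Ctsk passed, and 0 passed without the duration term or, in fits of smoke alone, without either smoke pool. Mmp12, the macrophage metalloelastase, had a log2 signal of 9.71 and 10.87 in the smoke pools, against 6.40 and 6.19 in the control pools. Mmp9, a gelatinase of neutrophils and macrophages, had 6.08 and 6.06 in the smoke pools, against 6.45 and 7.0 in the control pools (-0.66 ± 0.149, limma adjusted p = 0.131). When protein-coding genes alone were fitted, 6 of the 8 proteases rose and Mmp9 fell. The neutrophil serine proteases Elane, Prtn3 and Ctsg were under the floor. Of 11 inhibitors, 5 lay above the floor, with a median effect of 0.37, and Timp1 and Serpinb1a, an inhibitor of neutrophil serine proteases, rose. Serpinb1a had 11.01 and 10.84 in the smoke pools, against 10.22 and 10.23 in the control pools (0.70 ± 0.106, limma adjusted p = 0.0366). Timp3, the inhibitor that is bound to matrix, was at -0.35 ± 0.101 (adjusted p = 0.233). Both inhibitor calls were lost after cyclic loess, after median centring, without the duration term and with any pool left out, and that of Serpinb1a also with no floor.

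Of 7 measured genes of elastin binding and uptake, 1 rose, where 1.15% of all genes did. This was Ctsa, the protective protein of the elastin receptor complex. It had 12.25 and 12.56 in the smoke pools, against 11.60 and 11.94 in the control pools (0.63 ± 0.101, limma adjusted p = 0.0436). Lgals3, the galectin that binds elastin, was at 0.72 ± 0.127 (adjusted p = 0.0607), and the integrin and Neu1 genes of the list lay between -0.13 and 0.09. Of 6 growth factors that act on fibre-producing cells, 1 rose, Igf1, where 1.15% of all genes did. Igf1 had 8.42 and 8.57 in the smoke pools, against 7.85 and 7.76 in the control pools (0.69 ± 0.112, limma adjusted p = 0.0467). Tgfb1 was at 0.22 ± 0.115 (adjusted p = 0.565). The calls of Ctsa and Igf1 were lost under the same alternatives and with no floor.

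**Figure D4:**
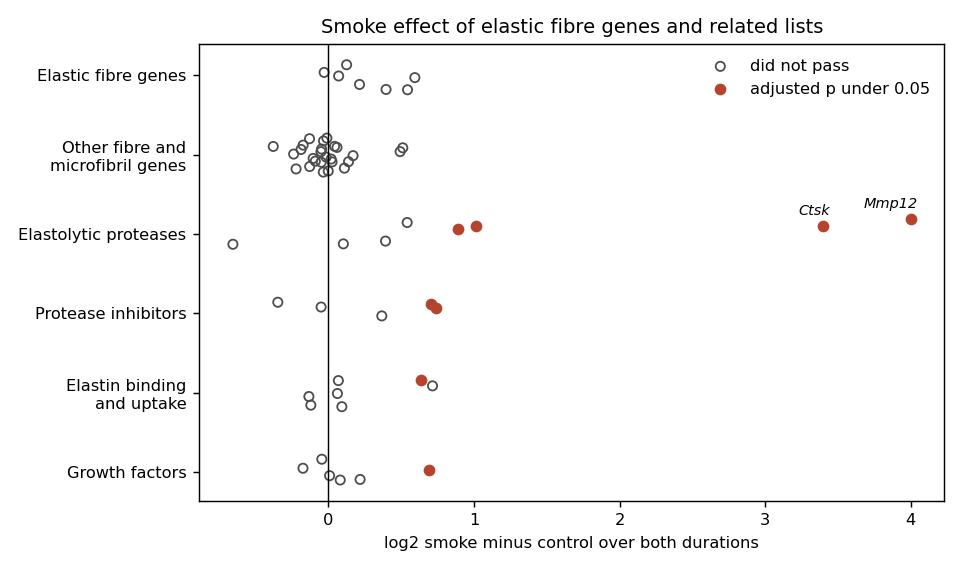
Smoke effect over both durations (horizontal axis, log2 smoke minus control) of every gene above the floor in each list (rows), filled where the limma adjusted p was under 0.05. No elastic fibre gene is filled, and Mmp12 and Ctsk lie far to the right of all others.

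Markers of the cells that make elastic fibres and of other cells were read beside these genes. All 7 measured fibroblast markers, 9 smooth muscle and pericyte markers and 4 of 5 mesothelial markers lay above the floor. Fibroblast markers had a mean log2 signal of 10.94 and 10.91 in the 2-week and 4-week smoke pools, against 10.66 and 10.71 in the control pools. Of the 7, 1 rose, Col3a1 (0.71 ± 0.105, limma adjusted p = 0.0340), where 1.15% of all genes did. The collagens Col1a1 (0.54, limma adjusted p = 0.0749) and Col1a2 (0.39, adjusted p = 0.184) also lay above 0. With protein-coding genes alone, 3 of the 7 rose, Col1a1, Col1a2 and Col3a1, where 7.03% of the genes passed. Lum, Pi16, Dpt and Tcf21 lay between -0.08 and 0.08, and the median effect of the list was 0.08. At 4 weeks Tcf21 was lower in smoke (-0.41). Smooth muscle markers had 10.60 and 10.46 in the smoke pools, against 10.64 and 10.93 in the control pools. They were lower in smoke at 4 weeks in 9 of 9 markers, where 46.5% of all genes were higher. At 2 weeks 4 of the 9 were higher in smoke. By limma 0 of the 9 passed. Myh11, Cnn1 and Tagln, 3 of the 9, had an unadjusted p under 0.05, all lower in smoke, against 11.6% of all genes. Tagln fell in the fit of protein-coding genes alone, where 7.03% of the genes passed. Mesothelial markers had 9.86 and 9.77 in the smoke pools, against 9.66 and 10.30 in the control pools, and 0 of 4 passed. Macrophage markers had 11.06 and 11.93 in the smoke pools, against 9.40 and 9.78 in the control pools, and 3 of 4 rose, Cd68, Itgax and Marco. After median centring only Cd68 passed, and 0 passed without the duration term or with any pool left out. The calls of Col3a1 and of the endothelial gene Cldn5 were lost after cyclic loess, after median centring, without the duration term and with any pool left out. Of the other lists, 1 of 5 endothelial markers fell, the junction gene Cldn5, where 0.315% of all genes fell. By limma 0 of 4 alveolar epithelial and 0 of 4 neutrophil markers passed. In each, 1 of 4 had an unadjusted p under 0.05, against 11.6% of all genes. Neutrophil markers had means of 8.36 and 8.12 in the smoke pools, against 8.49 and 9.29 in the control pools. At 4 weeks 3 of the 4 were at least 1.5-fold lower in smoke, as were 1.5% of all genes, with a median difference of -1.28. Ly6g was at -0.04 there, and S100a8 was 0.22 higher in smoke at 2 weeks. The 4-week control pool was the highest pool in 4 of 4 neutrophil markers.

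The 4-week control pool was above the 2-week control pool in 8 of 9 smooth muscle and 4 of 4 mesothelial markers, by medians of 0.30 and 0.68. So it was in 5 of the 7 elastic fibre genes, all but Eln and Lox, and in 52.1% of all genes. It was also above it in 4 of 4 neutrophil (median 0.67), 4 of 4 macrophage (0.30), 4 of 4 alveolar epithelial (0.10) and 3 of 3 adipose markers (0.22). The same held in 5 of 7 fibroblast (0.05), 2 of 5 endothelial (-0.05) and 2 of 5 cardiac muscle markers (-0.05). Adipose markers had means of 8.03 and 7.77 in the smoke pools, against 7.58 and 8.14 in the control pools. Between the control pools Car3 was 1.34 higher at 4 weeks, against 0.22 for Adipoq and 0.11 for Plin1. Cardiac muscle markers had 8.97 and 8.83 in the smoke pools, against 9.03 and 9.46 in the control pools. The 4-week control pool was 2.24 above the 2-week one in Nppa and 0.25 in Myl4. It was lower in Myh6, Myl7 and Ryr2 (-0.20, -0.10 and -0.05). Of 4 cartilage markers, Acan, Comp and Matn1 were under the floor. The part of these cell types in the elastic fibre values was not tested.

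The genes whose profile over the 4 arrays was nearest to that of Eln were found by the Euclidean distance of log2 values centred on each gene's mean, among 18083 genes. The 5 nearest were Naip5, a sensor of bacterial flagellin, Tnc, the matrix glycoprotein tenascin C, Hmmr, a hyaluronan receptor of dividing cells, H2az1, a histone variant, and Atp6v1c1, a subunit of the proton pump. Their distances were 0.0368 to 0.046 log2 units. Being chosen by this profile ties their own effects to that of Eln, and like Eln they did not pass (limma adjusted p 0.0707 to 0.0996). Among the elastic fibre genes Loxl1 was nearest to Eln, at a distance of 0.328 and rank 683, and Mfap4 was farthest, at 0.627 and rank 10359.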

How the data were processed

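Total RNA was labelled as biotin cRNA with the GeneChip WT PLUS kit, per the labels' protocols. Per the submitters' processing notes, the authors made the values with RMA and Affymetrix Expression Console 1.4.1, and what was deposited are linear intensities. RMA makes array distributions alike, so a shift of all genes would be removed. The sources used here do not give the genome build, any filter or a further transformation. The design had assumed log2 values, so log2 was taken. Of 65956 features, 30604 had 1 gene symbol, 2146 several and 33206 none listed. Symbols were updated by Entrez ID with RefSeq GRCm38.p6. The feature with the highest mean was used per gene, and genes above the 40th percentile (5.82) were kept. Smoke was tested with limma 3.58.1 (lmFit, eBayes) with duration as a term, which left 1 residual degree of freedom. The fit was also run on simulated data, where its pass mark covered only changes far larger than the elastic fibre effects. That check therefore does not show whether changes of their size would be found. Each group's single array limits precision. The members and lists were chosen with earlier results of these data known. Named genes were the 7 measured members, the 10 related genes with the largest absolute effect, Fbn2, Mfap5, Ltbp4 and Fbln2, and the 5 genes nearest to Eln. Genes named from the other lists were chosen after their values were seen. Alternatives were cyclic loess, median centring, the mean over features, other floors, protein-coding genes only, no duration term, a trended prior and leaving out each array.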

Additional observations from a re-analysis of the deposited data

Results flagged for a closer look

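In 4 named genes the smoke difference, smoke minus control, had opposite signs at the 2 durations, each value being 1 pool against 1 pool, and the difference between durations was not tested. Mfap2 was at -0.65 at 4 weeks and 0.17 at 2 weeks, a change of -0.82. Ltbp4 was at -0.32 at 4 weeks and 0.25 at 2 weeks, a change of -0.56. Adamtsl4 was at -0.36 at 4 weeks and 0.01 at 2 weeks, a change of -0.37. Fbn2, which was under the floor, was at 0.14 at 4 weeks and -0.04 at 2 weeks, a change of 0.19. None of the 7 elastic fibre genes was among them. No group had the 4 samples needed to look for an outlying sample.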

How the results depend on the processing

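Over all genes, 265 passed as reported, 72 after cyclic loess, 8 after median centring and 884 with protein-coding genes alone. With duration dropped from the limma model 0 passed, and 1163 had an unadjusted p under 0.05. With each array left out in turn, in fits of smoke alone, between 0 and 34 passed. Of the 7 elastic fibre genes 0 passed as reported, 1 (Eln) with the floor at the 60th percentile and 3 (Eln, Loxl1 and Mfap4) with protein-coding genes alone. The protein-coding fit tests fewer genes and moderates the spread across them alone. In it the Eln standard error was 0.0987, against 0.109 as reported. The limma unadjusted p of Eln was 9.5e-05, against 0.0021. What each of these adds to the changed calls was not tested. In the other 10 alternatives, which include every array left out, 0 of the 7 passed. Other floors, protein-coding genes alone, the mean over features, the trended prior and dropping duration left the 7 effects themselves unchanged. Their sign could therefore turn only after cyclic loess, after median centring or with an array left out. Under these alternatives the sign of the effect held in 5 of the 7 genes. It turned for Lox after cyclic loess (0.0080), and the cause was not tested. It turned for Emilin1 without the 4-week smoke pool (-0.018) or the 2-week control pool (-0.030), in fits that also drop the duration term, while both within-duration differences were above 0. With each array left out in turn, the Emilin1 effect ran from -0.030 to 0.17. The medians over the 7 genes moved by less than the residual spread under each scaling. The median change of the smoke difference with duration was -0.05 as reported and 0.00 after median centring. The duration term pairs each smoke pool with the control pool of its duration, so the reported fit is the paired one and the fit without that term the unpaired one. The number of arrays limits the precision.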
